A study of Mus musculus with 5 samples.

Results

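Of the 1900 mouse miRNAs on the arrays, 46 combined a very high content of G and C with a bright signal, and these miRNAs are described here. A miRNA was included when G and C made up 69% or more of its bases and when the mean of its 2 spots exceeded the 95th percentile of the empty spots by a factor of 2 on at least 1 of the 5 arrays. Each array has 4 empty spots, so this percentile rests on few values. In all, 106 miRNAs met the first condition and 399 met the second. The remaining 353 bright miRNAs, all with GC content under 69%, served for comparison. Brightness chose the miRNAs, so their levels are a description and carry no test.

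The study asked how miRNA levels change while wounds close in aged skin. RNA came from back skin of female mice in which a punch biopsy had left a full-thickness wound 3 mm wide, made while the hair follicles were in telogen, the resting stage of the hair cycle. Skin of 2-year-old mice was taken unwounded (aged D0) and on days 3, 5 and 7 after wounding (D3, D5 and D7), and skin of 8-week-old mice was taken unwounded only (young D0). Each of these 5 conditions has 1 array, with total RNA labelled with a single dye, and whether RNA of several animals was pooled is not given in the sources used here. No strain is named, no genetic change is listed, and wounds of young mice were not analysed here. No difference below therefore has a replicate check, and the only measure of error is the spread between the 2 spots of a miRNA on an array. In whole skin, a lower level from fewer cells of a type cannot be told apart from less RNA per cell.

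A miRNA guides an Argonaute protein to mRNAs, chiefly through its seed, bases 2 to 8 from its 5′ end, which pairs with sites mostly in the tail of the mRNA, and the mRNA is then translated less or degraded sooner. Each hairpin precursor can yield a miRNA from its 5′ arm (5p) and from its 3′ arm (3p), and usually one arm is retained more than the other. Many miRNAs with extreme base composition entered the registry late, from deep sequencing, and they are known less well than families such as let-7 or miR-200. RNA rich in G pairs tightly with its complement and can also stack through runs of G.

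The sequences below are those of some of the miRNAs described here. Capitals mark the seed, bases 2 to 8, and each sequence reads 5′ to 3′ as the array files give it. The first set holds 7 of the 8 miRNAs with the highest D3 ratios among those bright on both arrays compared. G is the most frequent base in each.
miR-6931-5p: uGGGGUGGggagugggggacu
miR-762: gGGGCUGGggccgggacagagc
miR-6944-5p: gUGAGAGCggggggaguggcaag
miR-2137: gCCGGCGGgagccccagggag
miR-2861: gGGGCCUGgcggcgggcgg
miR-5126: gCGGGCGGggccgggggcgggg
miR-705: gGUGGGAGguggggugggca

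The second set holds the brightest miRNA of all 46 and miR-7082-5p, whose ratio of aged over young skin was low. It also holds the 3 lowest D3 ratios among the miRNAs bright on both arrays. miR-341-5p, miR-7029-5p and miR-7648-5p hold no run of GGGG and carry at least as many C as G.
miR-341-5p: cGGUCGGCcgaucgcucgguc
miR-7082-5p: uACGGGCAggaggaggggagg
miR-7648-5p: cCGCGUUCcgggcucggcgc
miR-7029-5p: uCUGGACGcucggcugccagcgc
miR-3102-5p.2-5p: gGUGGUGCaggcaggagagcc

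The third set holds the arms of 1 hairpin. Both passed the limits although one is rich in G and the other in C.
miR-7045-5p: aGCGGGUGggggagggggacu
miR-7045-3p: uCUCCCCCcucccccgcacag

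Although all were GC-rich, no 2 of the 46 miRNAs shared a seed, so they form no seed family. The longest run of bases shared by any 2 of them was 10, found in the pairs miR-3547-5p with miR-6366, miR-328-5p with miR-7082-5p, and miR-6945-5p with miR-7069-5p, and 20 pairs shared a run of at least 9 bases. GC content ran from 69.2% in miR-6240 to 100% in miR-5126, with a median of 76.2%, and length ran from 18 to 26 bases. G prevailed over C. In 39 of the 46 miRNAs (84.8%) G outnumbered C, in 6 C outnumbered G, and in miR-341-5p both were equal. The letters GGGG, read on the strand of the miRNA, stood in 27 of them (58.7%), against 13.0% of the other bright miRNAs and 10.8% of all 1900. Of the 60 miRNAs with GC content of 69% or more that were not bright, only 21.7% held GGGG, 50% had more G than C, and 28.3% held CCCC, against 13.0% of the bright ones. The longest run, of 10 G, lay in miR-8110.

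Of the 46 miRNAs, 42 matched a mature miRNA of RefSeq by name, and all 42 had the same sequence there. On its GRCm38.p6 build they lay on 18 chromosomes. The array files name no build, so these positions are those of the RefSeq table. The span of a protein-coding gene held 34 of them, on either strand, 4 lay only in the span of a long non-coding RNA, and 4 lay in neither. miR-762 lay in the span of Bcl7c (chr7:127708534-127708555, + strand), miR-6931-5p in that of Dcakd (chr11:102999896-102999916, - strand), miR-6944-5p in that of Dbn1, the actin-binding protein drebrin (chr13:55477754-55477776, - strand), and miR-5126 in that of Dner, a Notch-related receptor of neurons (chr1:84695890-84695911, + strand). miR-2137 lay in the span of Zfp185 (chrX:72992113-72992133, + strand), miR-705 in that of Rab11fip5 (chr6:85336341-85336360, - strand), and miR-2861 in neither kind of span (chr2:32712819-32712837, - strand). miR-341-5p came from Rian, a non-coding RNA of the imprinted Dlk1-Dio3 region (chr12:109611521-109611541, + strand). Those not matched included miR-328-5p, miR-714 and miR-7235-5p.

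The arrays differed in ways that touch every level. The empty spots read a mean of 96.9 on aged D0, 52.9 on D3, 57.4 on D5, 85.8 on D7 and 92.8 on young D0, in array units. The level above which a miRNA counted as bright was accordingly 211, 117, 122, 198 and 214. On every array, all 46 miRNAs read higher than the 95th percentile of its empty spots. As bright counted 25 of them (54.3%) on aged D0, 46 (100%) on D3, 40 (87.0%) on D5, 36 (78.3%) on D7 and 39 (84.8%) on young D0, and 25 were bright on all 5. Among the 353 others, 185 (52.4%), 296 (83.9%), 250 (70.8%), 266 (75.4%) and 300 were bright on these arrays. The median scanned level of the 46 was 239 on aged D0, 420 on D3, 227 on D5, 386 on D7 and 578 on young D0, where the others had 224, 236, 218, 360 and 598. D3 was thus the array on which the 2 medians lay farthest apart.

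A miRNA of very high GC content was bright more often than others. Of the 106 on the array, 43.4% were bright on at least 1 array, against 19.7% of the 1794 with lower GC content. Below 69% there was no steady climb: the share was 19.9% under 40% GC, 24.2% from 40 to 50%, 16.0% from 50 to 60% and 20.3% from 60 to 69%. The GC-rich miRNAs also held a large part of the light on the arrays. Above the empty level they gave 13.1% of the summed miRNA signal on aged D0, 22.4% on D3, 20.3% on D5, 11.2% on D7 and 9.28% on young D0. miR-341-5p alone accounted for much of this, and without it the shares were 3.49%, 13.4%, 8.63%, 5.48% and 5.02%. Among the 20 brightest miRNAs of each array were 1 of the 46 on aged D0, 7 on D3, 3 on D5, 1 on D7 and 1 on young D0.

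**Figure D1:**
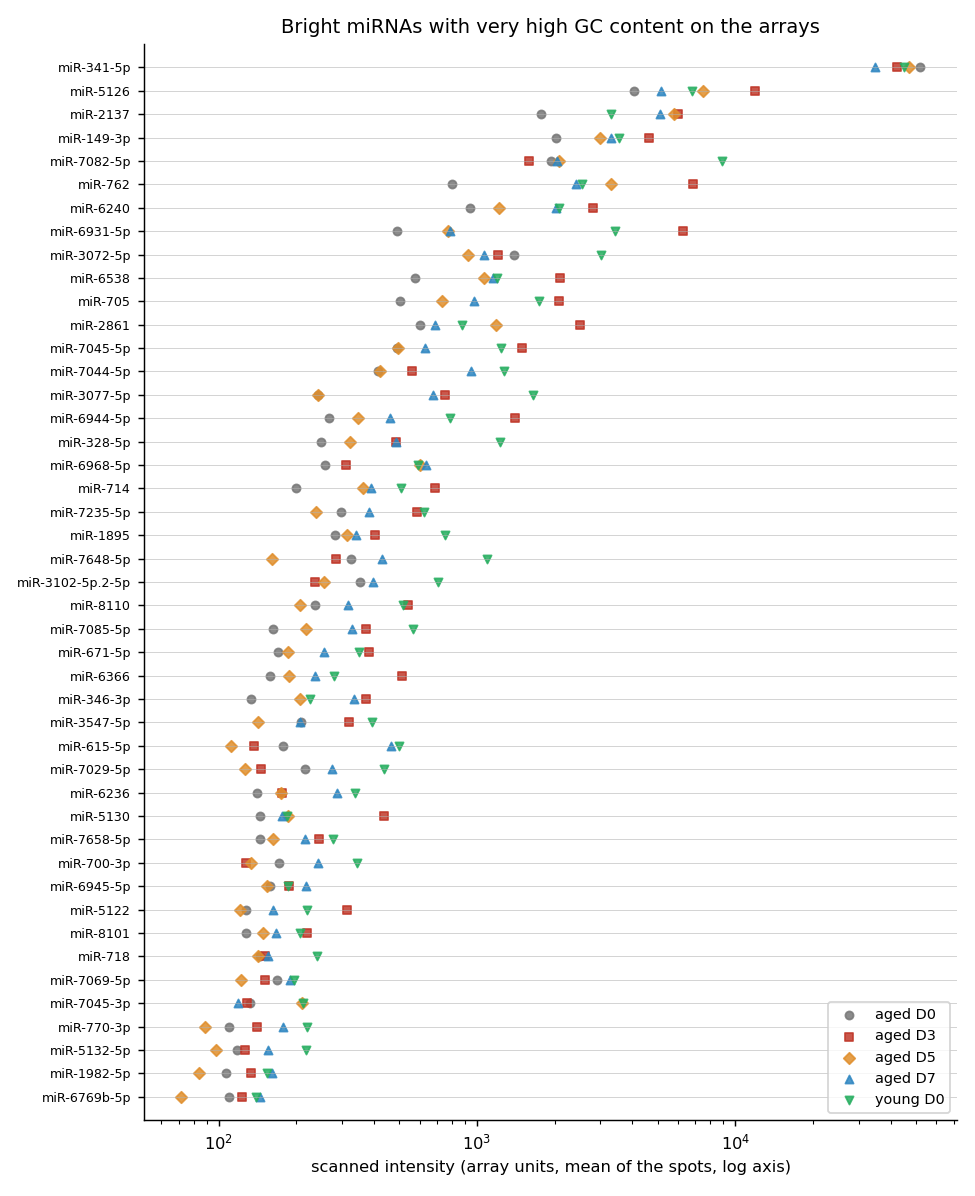
Scanned intensity of 45 of the 46 miRNAs (array units, mean of 2 spots, log axis) on the 5 arrays, 1 symbol per array, ordered by their mean level. miR-341-5p stood alone between 34795 and 52105, and D3 (red squares) was the highest array for 20 of the 46, while young D0 (green triangles) was the highest for 21.

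miR-341-5p, of the imprinted region, was by far the brightest. It read 52105 on aged D0, 42418 on D3, 46920 on D5, 34795 on D7 and 45084 on young D0. It was the second brightest miRNA on every array, close to the top of the scanner's readings, and quantile normalization therefore fixed its ratios at or near 1 whatever it did. Its D3 ratio ran from 0.528 to 1.69 over the processing settings, so no direction is given for it. miR-5126, which consists of G and C only, followed with 4047, 11874, 7475, 5140 and 6804 on the arrays in the same order. Its scanned D3 level was the highest and its scanned aged D0 level the lowest, while after normalization young D0 was lowest. miR-2137 read 1771, 6014, 5766, 5109 and 3289, with all 3 wound arrays above both unwounded ones. miR-149-3p, the other arm of the well-studied miR-149, read 2021, 4651, 3004, 3295 and 3552. It was again lowest on aged D0 as scanned, but on young D0 after normalization.

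Wounds of day 3 set these miRNAs apart from other bright ones most clearly. After quantile normalization, the median D3 ratio over aged D0 was 1.81 (quartiles 1.15 to 3.24, range 0.568 to 13.0) for the 46, against 0.892 (quartiles 0.668 to 1.40) for the 353 others. On the log2 scale the 2 medians differed by 1.02, a 2.03-fold difference. At least 2-fold higher on D3 were 22 of the 46, where 15.3% of all 399 bright miRNAs were, and none was 2-fold lower, where 11.5% of all were. A ratio above 1 was found in 37, below 1 in 8, and miR-341-5p was fixed at 1. Of the others, 39 were 2-fold higher and 46 were 2-fold lower. The spots agreed: in 21 of the 22, both spots gave a ratio of at least 2, and a single spot's log2 ratio had an SD of 0.20 between spots among the 46.

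The gap was also present without normalization and among miRNAs bright throughout. On the scanned values as deposited, with no processing, the median D3 ratio was 1.83 for the 46 and 0.863 for the others, and 36 of the 46 (78.3%) but 127 of the 353 (36.0%) read higher on D3. Among miRNAs bright on all 5 arrays, the medians were 2.49 for 25 GC-rich miRNAs, with 14 at least 2-fold higher, and 0.760 for 174 others, with 16. Those bright on 1 to 4 arrays, some of which passed the limit only where they were high, had medians of 1.69 and 1.13. The ratio of the 46 itself depended on how arrays were scaled, from 1.20 with the spike controls to 2.89 in the authors' values. Scaled to the spike controls, 11 were 2-fold higher and 3 were 2-fold lower.

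**Figure D2:**
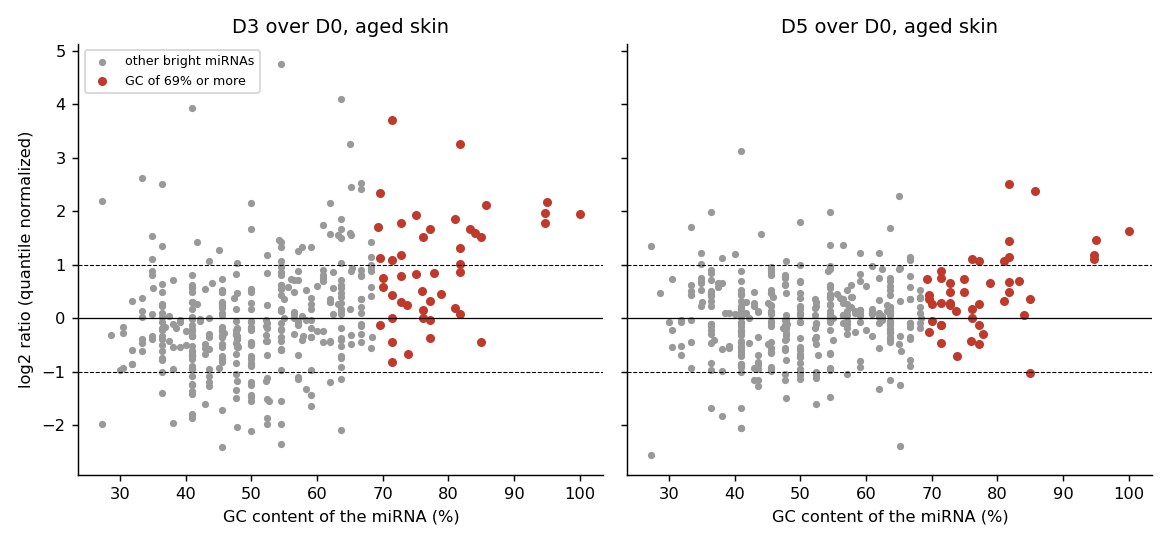
Log2 ratio of each bright miRNA on D3 (left) and D5 (right) over aged D0, after quantile normalization, against its GC content in percent. Red points are the 46 miRNAs with GC content of 69% or more, grey points the 353 others, and dashed lines mark 2-fold. On D3, 22 red points lie above the upper line and none below the lower one.

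miR-6931-5p had the highest D3 ratio of the 46. Its levels were 490 on aged D0, 6247 on D3, 772 on D5, 788 on D7 and 3429 on young D0, and the D3 ratio was 13.0 from either spot. By scanned level, only D3 and young D0 stood high. Over all settings its D3 ratio lay between 8.28 and 20.9. miR-762 read 803, 6876, 3308, 2428 and 2546 in the same order. Its D3 ratio was 9.58 (8.38 and 10.9 from the spots), and each wound level of aged skin was above its unwounded level. miR-6944-5p read 267, 1408, 346, 462 and 789, with a D3 ratio of 5.09, and its D3 level was the highest.

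Some of the most GC-rich miRNAs followed. miR-2861 read 601, 2516, 1182, 688 and 871. It is known from bone, where it acts on Hdac5 during osteoblast differentiation. Its D3 ratio was 3.92. By scanned level the D3 array was highest and aged D0 lowest, while after normalization young D0 was lowest. miR-6538, in the span of Rnf144a (chr12:26414970-26414988, - strand), read 574, 2095, 1065, 1159 and 1195, with a D3 ratio of 3.42. miR-5126, described above, had a D3 ratio of 3.88 and miR-2137 one of 4.32.

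miR-705, described in stromal cells of the bone marrow as acting on Hoxa10, read 502 on aged D0, 2084 on D3, 734 on D5, 973 on D7 and 1733 on young D0. Its D3 ratio was 3.83 (3.75 and 3.90 from the spots). By scanned level, young unwounded skin lay below the D3 wound but above the other arrays. After normalization, young unwounded skin lay level with aged D0 (aged over young ratio 0.990) and below D5 and D7. miR-346-3p, in the span of the glutamate receptor gene Grid1 (chr14:34894662-34894683, + strand), was dim and read 134, 372, 206, 333 and 227. Its D3 ratio was 3.18, but its spots differed, with 2.49 and 4.06. The study listed both miRNAs as opposite in young and aged wounds, with the aged courses taken from these same arrays. In its listing, however, both were above unwounded skin on D3 at both ages, with a larger rise in aged skin. Young wounds were profiled on another array platform. The D3 ratios of both miRNAs are therefore not independent evidence of a direction. miR-6240, with the lowest GC content of the 46, read 937, 2825, 1221, 2028 and 2077, with a D3 ratio of 3.26.

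Others at least 2-fold higher on D3 were miR-714 (3.61), miR-6366 (3.45), miR-5130 (3.16), miR-3077-5p (3.02), miR-7045-5p (2.86), miR-5122 (2.85), miR-149-3p (2.49), miR-7085-5p (2.28), miR-671-5p (2.17), miR-8110 (2.13) and miR-8101 (2.02). Of the 22, 14 were bright on all 5 arrays. A further 15 lay between 1.06 and 1.83.

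At the lower end, the ratios were modest. miR-3102-5p.2-5p, in the span of Arhgef17, read 351 on aged D0, 236 on D3, 256 on D5, 395 on D7 and 709 on young D0, and its D3 ratio was 0.568. miR-7029-5p, in the span of the translation regulator Gcn1, read 216, 145, 127, 276 and 435, with a D3 ratio of 0.627. miR-7648-5p read 325, 286, 161, 428 and 1093, with a D3 ratio of 0.736. These 3 lay below 1 in every setting. The other 5 below 1 were miR-7082-5p, miR-3072-5p, miR-7069-5p, miR-615-5p and miR-700-3p, between 0.738 and 0.997.

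Within the 46, the ratios differed with the balance of G and C. The rule did not name this balance, but brightness went with it. More G than C was found in 84.8% of the 46 and in 50% of the GC-rich miRNAs that were not bright. The split is therefore not independent of the selection. The 39 miRNAs with more G than C had a median D3 ratio of 2.13, and 21 of them were at least 2-fold higher. The 6 with more C than G had a median of 0.905, and 1 of them, miR-6240, was 2-fold higher. With GGGG the median was 2.28 (16 of 27 at least 2-fold higher), and without it 1.23 (6 of 19). The other bright miRNAs showed the same order: the 46 of them with GGGG had a median of 1.65 and the 307 without it 0.857. Within the narrow range of 60 to 69% GC, the 32 with GGGG had a median of 1.71 and the 44 without it 1.22. The miRNAs of a group are not independent replicates, and all their ratios come from the same 2 arrays.

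The median D3 ratio was highest in the most GC-rich range, although the highest single ratio, 13.0 for miR-6931-5p, was at 71.4% GC. At 80% GC and above, the median D3 ratio was 3.09 and 12 of 16 were at least 2-fold higher. From 75 to 80% it was 1.40 (3 of 12), and from 69 to 75% it was 1.59 (7 of 18), so there was no order between these lower ranges. Across all 399 bright miRNAs, Spearman's rho between GC content and the D3 ratio was 0.37. It was 0.39 for the content of G and -0.13 for that of C. Among the 46, rho was 0.28 for GC, 0.46 for G, -0.22 for C and 0.43 for the mean level. The points of these correlations are miRNAs that share 2 arrays, and no p-value is given.

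**Figure D3:**
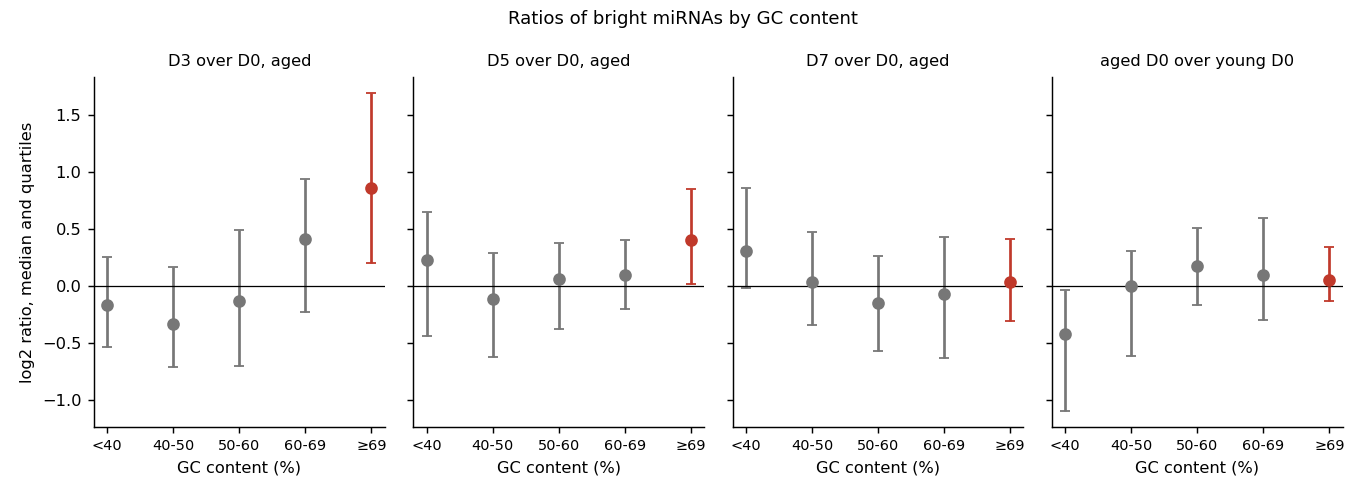
Median log2 ratio (points) and quartiles (bars) of bright miRNAs grouped by GC content in percent, for the 4 comparisons, after quantile normalization. The 46 miRNAs at 69% or more are in red. On D3 the group medians were 0.890, 0.793, 0.910, 1.33 and 1.81 as ratios, from the lowest to the highest GC content, and on D7 the highest group lay at 1.02.

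The name of a miRNA tells when it was found and whether an arm was assigned. Of the 46, 34 (73.9%) had a registry number of 1000 or higher, against 30.3% of the other bright miRNAs. The median D3 ratio was 2.00 for the 12 with numbers under 1000, 1.69 for the 9 from 1000 to under 5000, and 1.79 for the 25 from 5000, so the age of the entry did not order the ratios within the 46. In the other bright miRNAs it did: 0.799 for 246 under 1000, 1.35 for 37 from 1000 to under 5000 and 1.40 for 70 from 5000. The median GC content of these 3 groups rose as well, from 45.5% to 54.5% and 60.9%. Set against other miRNAs of number 700 or higher only, the log2 difference of the medians on D3 was 0.41 in place of 1.02. By arm, the 17 with no arm in their name had a median D3 ratio of 3.42, and 14 of them were 2-fold higher. The 24 from the 5p arm had 1.38 and the 5 from the 3p arm 1.73. These groups differed in GC content too, with medians of 81.8% without an arm, 74.5% for 5p and 76.2% for 3p. The median of the 60 other bright miRNAs without an arm was 1.07.

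On day 5 the gap was narrower. The median ratio over aged D0 was 1.32 (quartiles 1.01 to 1.80) for the 46 and 1.04 for the others, a log2 difference of 0.35. Of the 46, 11 were at least 2-fold higher, where 7.77% of all bright miRNAs were, and 1 was 2-fold lower, where 6.52% were. At 80% GC and above, the median was 2.11 and 9 of 16 were 2-fold higher. Scaled to the spike controls, the median of the 46 was 0.868 and only 2 were 2-fold higher, while that of the others was 0.632.

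The D5 levels were led by miRNAs that were also high on D3. miR-762 had the highest D5 ratio, 5.65, followed by miR-2137 with 5.19 and miR-5126 with 3.09, and these lay above 1 in every setting. miR-2137 was the one of these with a D5 ratio above its D3 ratio after normalization. miR-2861 had a D5 ratio of 2.26, miR-149-3p 2.22 and miR-6538 2.14. miR-6968-5p, in the span of Phf1, a Polycomb-associated gene, took another course, with levels of 258 on aged D0, 311 on D3, 602 on D5, 637 on D7 and 590 on young D0. Its D3 ratio was 1.06 and its D5 ratio 2.73. miR-7648-5p was the one miRNA at least 2-fold lower on D5, with a ratio of 0.492 (0.520 and 0.465 from the spots), and its level of 161 was its lowest on any array. miR-7029-5p (0.617) and miR-3102-5p.2-5p (0.725) also lay below 1.

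By day 7 the medians of the 46 and of the rest lay close together. The median D7 ratio was 1.02 for them and 1.01 for the others, with 24 above 1 and 21 below. At least 2-fold higher were 3, where 10% of all bright miRNAs were, and none was 2-fold lower, where 6.52% of all were. The 3 were miR-2137 (2.55), miR-762 (2.14) and miR-346-3p (2.01). Only for miR-2137 did both spots give a ratio of at least 2, and the spots of miR-346-3p gave 1.46 and 2.77. miR-3077-5p had a D7 ratio of 1.74. At the lower end were miR-3072-5p with 0.570, miR-3102-5p.2-5p with 0.658 and miR-2861 with 0.707, the latter 2 above 1 in some settings. The median of the 46 ran from 0.805 with scaling to the 75th percentile to 1.53 with scaling to the 5S probes, so on D7 neither the direction nor the count was settled. The count 2-fold higher ranged from 0 to 14 under these scalings.

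Over the 3 wound days, most of the 46 were highest on D3 after quantile normalization. This order depended on the scaling. Scaled to the spike controls, the median ratio of the 46 was 1.20 on D3 and 1.31 on D7, against 0.566 and 1.29 for the others. The D3, D5 and D7 ratios share the aged D0 array, so an error in that array would enter all of them, but the order of the wound days involves it only through the shared normalization. D3 was the highest of the wound days for 34 of the 46 (73.9%) and for 102 of the 353 others (28.9%). The 34 include miR-341-5p, which quantile normalization held equal on all 3 days. D5 was the highest for 7 and D7 for 5 of the 46, while D7 was the highest for 39.9% of the others. From D3 to D5 the level was lower in 37 (80.4%) of the 46 and in 44.5% of the others. On at least 1 day, 24 of the 46 (52.2%) were 2-fold or more above D0, against 69 of the 353 others (19.5%). For 13 of the 46 (28.3%) and 24 of the others (6.80%) this was so exclusively on D3, and for 3 (6.52%) and 6 (1.70%) on all 3 days. Below D0 on all 3 days were 6 of the 46 (13.0%) and 103 of the others (29.2%).

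**Figure D4:**
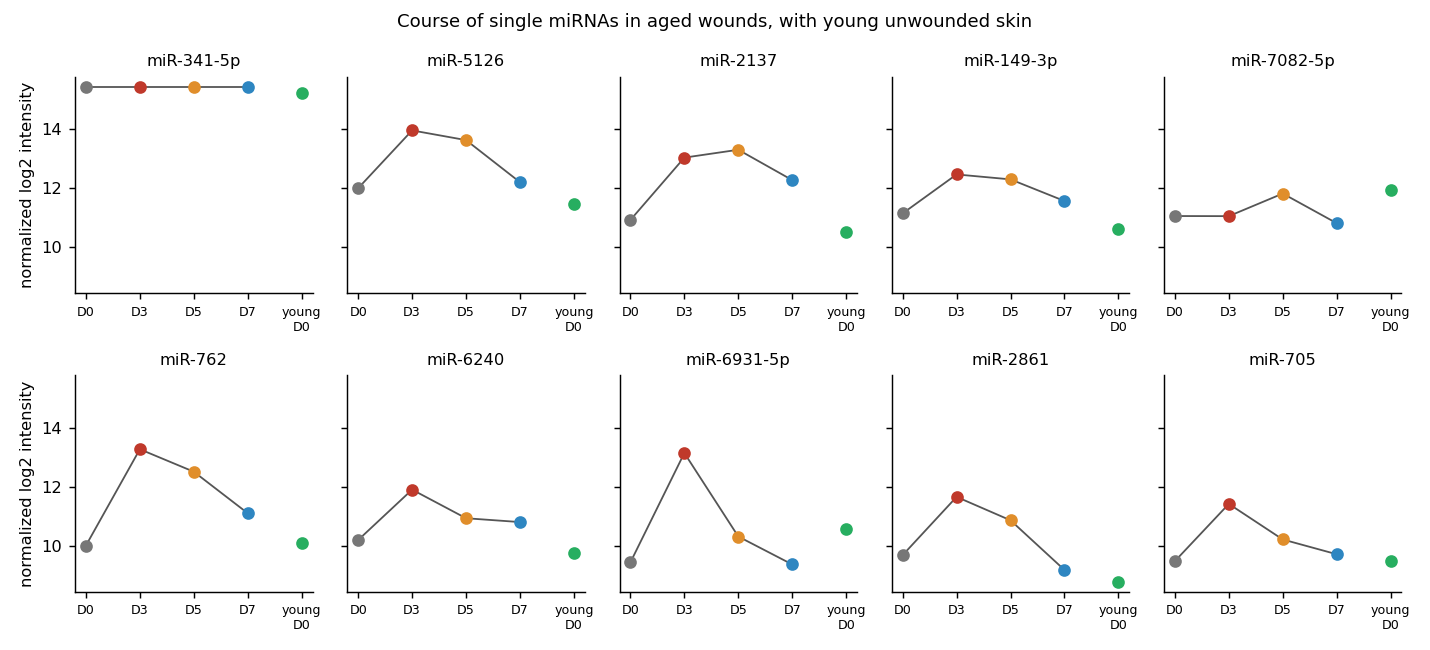
Normalized log2 intensity of 10 single miRNAs on the aged D0, D3, D5 and D7 arrays (joined) and on the young D0 array (separate green point), 1 array per point. miR-6931-5p peaked sharply on D3, miR-2137 was highest on D5, and miR-341-5p was held level by quantile normalization.

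In unwounded skin of the 2 ages, the 46 and the other bright miRNAs had similar medians. The median ratio of aged D0 over young D0 was 1.04 (quartiles 0.909 to 1.27) for the 46 and 1.01 for the others. None had a ratio of 2 or more, where 4.51% of all bright miRNAs were, and 2 were at least 2-fold lower in aged skin, where 11.5% were. On scanned values the young array was brighter throughout: the median aged over young ratio was 0.492 for the 46 and 0.484 for the others, and 45 of the 46 read lower on the aged array. With scaling to the 75th percentile the median of the 46 was 1.67 and 11 were 2-fold higher, whereas with scaling to the 5S probes it was 0.503 and 23 were 2-fold lower. The other bright miRNAs moved alike, with medians of 1.63 and 0.493 under these scalings. No direction with age is therefore given for the group.

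Single miRNAs were lower in aged skin in every setting. miR-6931-5p read 490 on aged D0 and 3429 on young D0, a normalized ratio of 0.455 (0.433 and 0.477 from the spots). miR-3077-5p, in the span of Sap18 and reported in bone marrow stromal cells as acting on Runx2, read 242 on aged D0, 755 on D3, 243 on D5, 677 on D7 and 1647 on young D0, with an aged over young ratio of 0.468. For both, young unwounded skin was well above aged unwounded skin, and the level on D3 was above aged D0. miR-7082-5p, in the span of Raver1, an RNA-binding protein gene, read 1931, 1593, 2075, 2042 and 8870, with a ratio of 0.540. Its 4 scanned levels in aged skin lay close together, below that in young skin, whose array was brighter throughout. Normalized log2 levels were 11.06, 11.06, 11.82 and 10.82 in aged skin and 11.95 in young skin, so D5 lay near young skin. At the other end were miR-2861 (1.87), miR-6538 (1.46) and miR-5126 (1.45), which lay below 1 in some scalings.

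Few of the 46 shared a locus. Of the imprinted Dlk1-Dio3 region, whose non-coding RNAs are made from the maternal chromosome, 3 members were bright. miR-341-5p is described above. miR-3072-5p, from the transcript Mirg, read 1397 on aged D0, 1202 on D3, 924 on D5, 1062 on D7 and 3011 on young D0, with a D3 ratio of 0.983. miR-770-3p, from Meg3, was near the limit, between 88.8 and 220, with a D3 ratio of 1.73. The span of Irak1, a kinase of Toll-like receptor signalling, held miR-718 and miR-5132-5p, with D3 ratios of 1.14 and 1.35. miR-8101 lay in the span of the histone deacetylase gene Hdac5, with a D3 ratio of 2.02, and miR-615-5p in that of the homeobox gene Hoxc5, with levels of 178, 137, 111, 466 and 500 and ratios of 0.775 on D3 and 1.83 on D7.

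The other arm of the hairpin was mostly not bright. A probe for it existed for 28 of the 46, and 24 of these were not bright on any array. miR-149-5p, the arm for which miR-149 is mostly known, read 116 on aged D0, 90.6 on D3, 102 on D5, 164 on D7 and 193 on young D0, with a D3 ratio of 1.01. miR-6931-3p read 61.6 on D3, where the 5p arm read 6247. These are different probes, and their levels are not compared as amounts of RNA. miR-346-5p was bright on 4 arrays and read 216, 167, 160, 190 and 231, with a D3 ratio of 0.715, while the 3p arm had 3.18. In the hairpin of miR-7045, in the span of the chromatin remodeller gene Chd4, the G-rich 5p arm read 491, 1500, 497, 630 and 1237. The C-rich 3p arm shown above read 132, 129, 210, 119 and 213. Their D3 ratios were 2.86 and 1.11 and their D5 ratios 1.12 and 2.14, so the arms peaked on different days.

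Both limits cut through continuous values. Just inside the GC limit were miR-6240 at 69.2% and miR-671-5p, miR-6944-5p and miR-7069-5p at 69.6%. Just outside lay miR-709 at 68.4%, with levels of 34381 on aged D0, 21897 on D3, 31728 on D5, 20564 on D7 and 31059 on young D0 and a D3 ratio of 0.786. At 68.2% were 8 miRNAs, with D3 ratios from 0.681 for miR-7028-3p to 2.69 for miR-7118-5p. At the brightness limit, miR-6769b-5p exceeded the 95th percentile of the empty spots 2.12-fold and miR-5132-5p 2.16-fold on their best array, against 1.98-fold for miR-681 and 1.92-fold for miR-7666-3p just outside. miR-1982-5p and miR-6769b-5p were bright on the D3 array alone, with 134 and 124, although their D7 levels of 161 and 145 were higher, since the empty spots were darker on D3.

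Markers of cell types and the controls also differed between the arrays. The summed level of 7 epithelial miRNAs was 38489 on aged D0, 16244 on D3, 17340 on D5, 27476 on D7 and 46538 on young D0, with 6 of 7 bright on all arrays. For 4 miRNAs of skeletal muscle the sums were 32805, 6780, 7225, 15455 and 64973, all 4 bright on all arrays. For 5 leukocyte miRNAs they were 901, 4071, 2389, 4172 and 5829, with 1 bright on all arrays and miR-142a-3p at the level of the empty spots on aged D0, and for 4 erythroid miRNAs 2118, 1042, 1339, 1274 and 2571, with 1 bright on all arrays and both arms of miR-144 near the empty spots. The median D3 ratios of these lists were 0.428, 0.294, 2.92 and 0.746. Of the 7 epithelial miRNAs, 1 had a D3 ratio above 1, miR-200c-3p with 2.10. Of the 5 leukocyte miRNAs, 4 lay above 1, all but miR-150-5p with 0.743. The geometric mean of 11 spike controls was 4784, 7368, 6353, 4803 and 5986, highest on D3, and that of 5 probes for 5S RNA was 34604, 35507, 35880, 29170 and 34868. The part of cell composition and of the darker empty spots on D3 in the D3 levels of the GC-rich miRNAs was not tested.

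**Figure D5:**
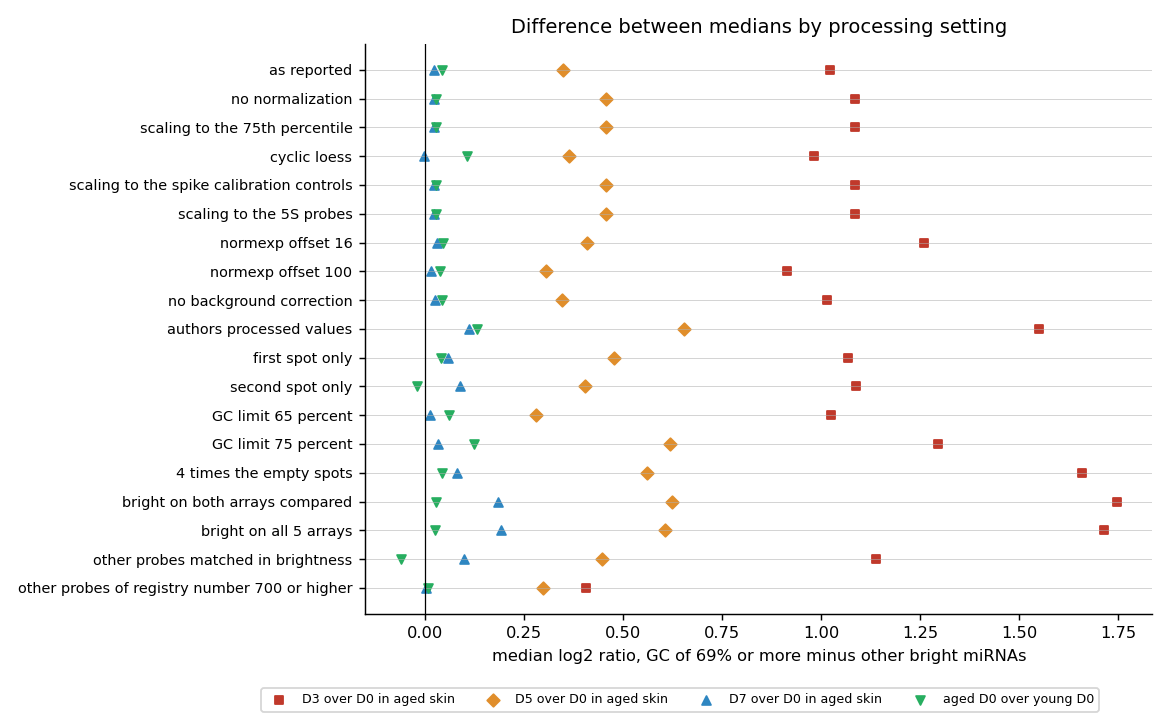
Difference between the median log2 ratio of the GC-rich miRNAs and that of the other bright miRNAs under 19 processing settings (rows), for the 4 comparisons (symbols). The D3 difference lay between 0.41 and 1.75 and the D5 difference between 0.28 and 0.65, while those of D7 and of aged over young skin lay near 0.

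The difference between the 2 medians kept its sign on D3 and on D5 in all 19 settings. On D3 it ranged from a 1.33-fold to a 3.35-fold difference and on D5 from 1.21-fold to 1.57-fold. Multiplying an array by a single factor leaves it unchanged, so the scalings to controls bear on the level of the group and not on this difference.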

How the data were processed

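Total RNA of 5 back skin samples, 1 per condition, was labelled with Cy3 and hybridized by a service provider. The authors deposited scanner files with a median intensity per spot, linear and not normalized, whose background columns are empty. They also deposited a table of processed intensity, used as an alternative, whose normalization is not given in the sources used here and which was floored at 1 here before taking log2. From the scanner files, intensities were background corrected on the intensities alone (limma 3.58.1 in R 4.3.3, normexp, offset 50), log2 transformed and quantile normalized over the 5 arrays without control spots, and the 2 spots were averaged. The offset draws ratios of dim miRNAs towards 1. Ratios are 2 to the power of the log2 difference. Levels are scanned values. The scripts were tested on simulated data, using only miRNAs bright on all 5 arrays and a tolerance wider than the D5 difference of the medians. Medians and counts were compared in Python 3.11.15 (pandas 2.3.3, numpy 2.4.6).

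No test across samples was possible. The members and lists were chosen with earlier results of these data known. Named with values were 7 of the 8 brightest (1 is not reported here), the 3 highest and 3 lowest ratios per comparison among members bright on both arrays, members the study selected, those near the limits and other arms. Further members at least 2-fold higher, members of shared loci, miR-6968-5p, miR-615-5p and the miR-7045 arms were named after their values were seen. Sequences are those of the array files, positions are from RefSeq (GRCm38.p6). Counts, medians and the plots by GC content cover all 46 members.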

Additional observations from a re-analysis of the deposited data

How the results depend on the processing

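The log2 difference between the medians of GC-rich and other bright miRNAs was 1.02 on D3, 0.35 on D5, 0.02 on D7 and 0.04 for aged over young skin, and 18 alternatives were tried for each. The scalings to the 75th percentile, the spike controls and the 5S probes gave the same differences as no normalization. A single factor per array cannot change these differences, so these scalings were no separate check of the sign. The sign on D3 and D5 was kept in all alternatives. It turned on D7 with cyclic loess (-0.00232), and for aged over young skin with the second spot only (-0.0185) and with other miRNAs matched in brightness (-0.0603). By more than the SD of a single spot's log2 ratio over all 399 bright miRNAs (0.24 on D3, 0.23 on D5, 0.36 on D7 and 0.23 for aged over young skin), the D3 value moved to 1.55 and the D5 value to 0.65 with the authors' processed values, to 1.30 and 0.62 with a GC limit of 75%, to 1.75 and 0.62 with miRNAs bright on both arrays compared, and to 1.71 and 0.61 with miRNAs bright on all 5 arrays. The D3 value alone moved to 1.66 with 4 times the empty spots and to 0.41 against other miRNAs of registry number 700 or higher. The cause of these moves was not tested. The remaining 59 differences moved by less. The count of miRNAs at least 2-fold higher on D3 was 22, and it was 11 with the spike controls and 14 among those bright on both arrays. On D5 it was 11, and 2 with the spike controls. On D7 it was 3, and 0 with the 75th percentile but 14 with the 5S probes.

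No paired analysis was possible because there is only 1 array for each condition. The number of arrays limits the precision: no difference between conditions can be set against the spread between animals, and the 2 spots share their RNA and their array. Dim miRNAs lie close to the empty spots, which were darker on D3 and D5 than on the other arrays. miR-341-5p is near the top of the scanner's readings.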
